A study of Mus musculus with 16 samples.

Results

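The clonal lines of MEF-1 were compared with those of MEF-2 by the fibroblast programmes they expressed, that is, matrix, lineage markers, signalling pathways, positional transcription factors and cell cycle genes. Of the 16 lines of the study, 14 entered the comparison, 7 clonal lines of MEF-1 and 7 of MEF-2, and the 2 parental lines were left out of the tests. Of 21872 protein-coding genes in the table, 13282 were counted, those on autosomes other than 12, 18 and 19 with an average over all lines above 0. All lines are immortalised mouse embryonic fibroblasts (MEFs) of the strain C57BL/6J. MEF-1 came from a male and MEF-2 from a female embryo, siblings taken at E13.5, and each was immortalised on its own by serial passage through crisis. No line was given a treatment. A clonal line is the progeny of 1 flow-sorted cell of its parental line, harvested at 75% confluency, with 1 library of total RNA. All 7 clonal lines of a set thus go back to 1 embryo and 1 immortalisation, and a p-value below sets a difference against the spread between clones, not between embryos. Embryo, sex, immortalisation and karyotype cannot be told apart.

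Fibroblasts make the collagens, proteoglycans and elastic fibres of connective tissue, and they differ by where in the body they come from. Cells of a limb, the face or the body wall keep the homeobox genes of their origin in culture, and a dish of embryonic fibroblasts holds precursors of cartilage, fat, tendon and contractile cells beside each other. A clone here started from 1 cell sorted after immortalisation, and what it kept of its origin was not tested. Passage through crisis selects cells that have lost a brake on division, commonly in the Trp53 gene or at the Ink4 locus.

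The values are regularised log2 values (rlog) per gene and line, in which the deviations of lines from the average of the gene are shrunken by the authors. They are not divided by gene length, so that values are compared between lines and not between genes. The table holds no counts and the depth of the libraries is unknown. A difference is the mean of MEF-2 minus the mean of MEF-1 on the log2 scale, with its SE, and an adjusted p is from limma over all genes fitted. As 54.3% of the 13282 genes passed an adjusted p of 0.05 (28.4% higher in MEF-1, 25.9% higher in MEF-2, a balance that turned under 2 of the alternatives tried), gene groups were also read at a difference of 1 or more. By that rule, 1056 genes (7.95%) were higher in MEF-1 and 570 (4.29%) were higher in MEF-2. The lines of the 2 sets did not overlap in 23.9% of all genes. The median difference over all genes was −0.01, against which the median of each group below can be read. The counts of a group can be read against the shares over all genes in the same way. A count near these shares does not set a group apart. In a bulk sample, fewer cells of a type and less RNA per cell cannot be told apart.

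The 50 gene groups hold 1444 different genes, of which 1140 were measured. Groups and members were chosen with earlier results of these data known. A large share of a group thus describes these lines and is no independent support. Among groups with 7 or more measured members, the share higher in MEF-1 by 1 or more was largest for the HoxB cluster and chondrogenic genes. The HoxB share of 8 of 9 counts Hoxb6, whose MEF-2 values followed the level the table gives to genes without reads. The share higher in MEF-2 by 1 or more was largest for pericyte markers, mitosis genes and smooth-muscle contractile genes. The pericyte share rests on 3 of 7 genes, of which Abcc9 and Rgs5 lost their call when single clones were left out, and the 13 mitosis genes fell to 3 without MEF-1 clone 1.

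**Figure D1:**
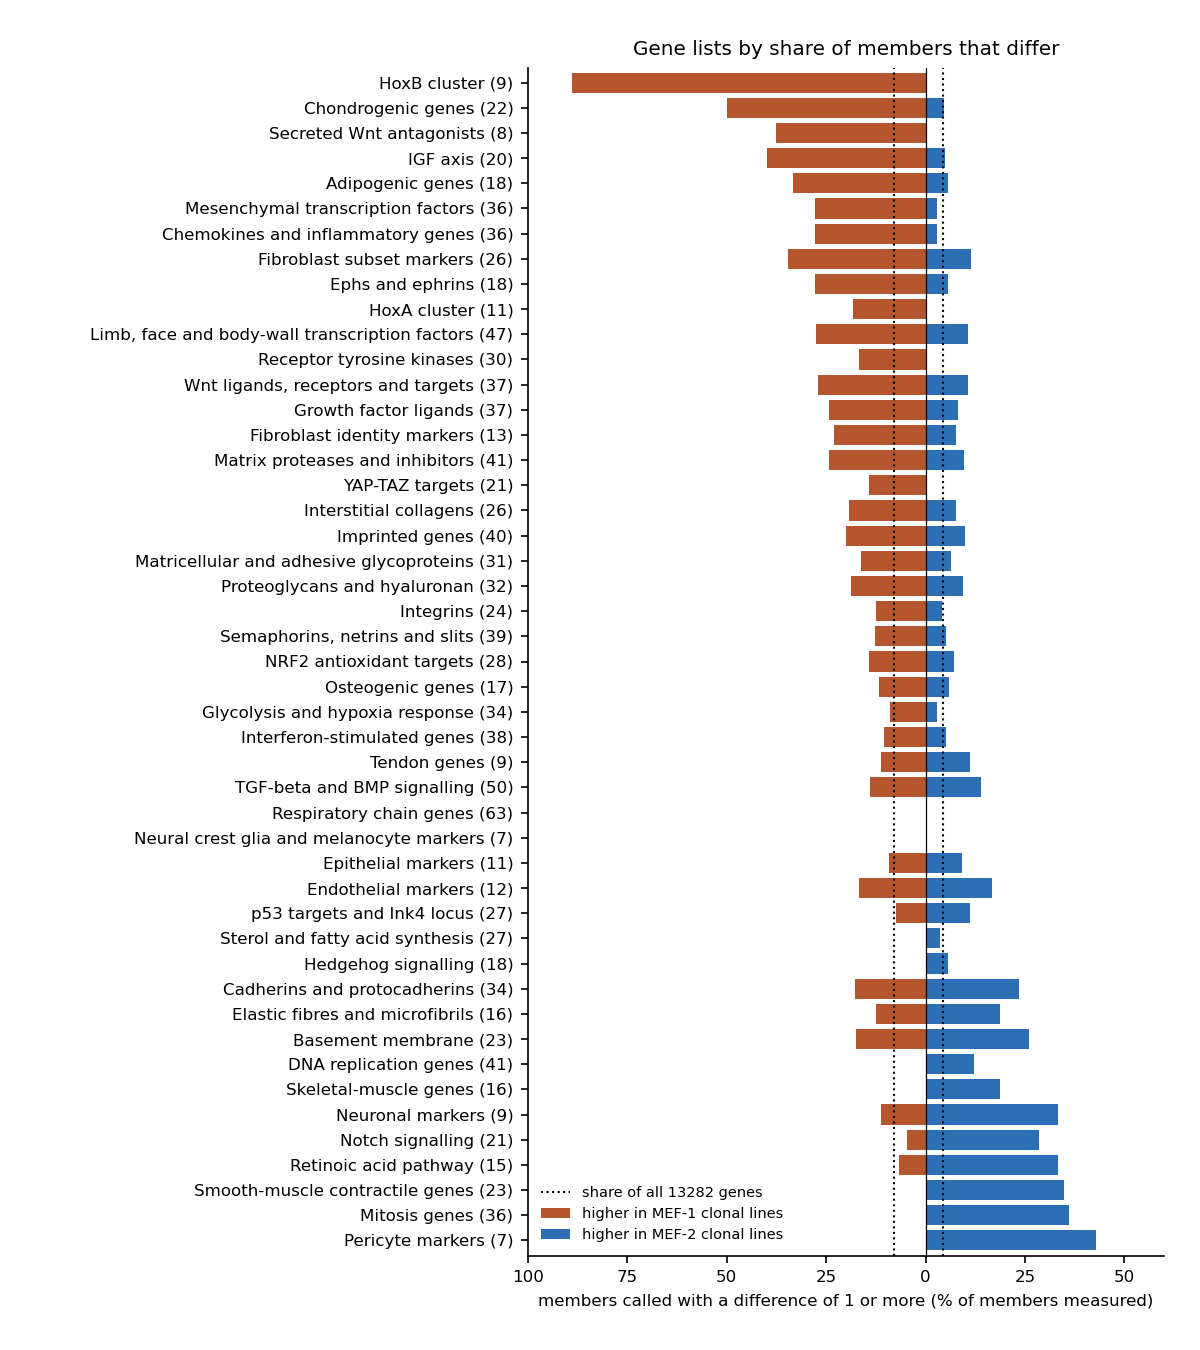
The bars give, for each gene group with 7 or more measured members (number in brackets), the percentage of those members that were higher in MEF-1 clonal lines (to the left) or in MEF-2 clonal lines (to the right) by 1 or more at an adjusted p under 0.05. The dotted lines mark the shares over all 13282 genes, 7.95% and 4.29%.

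Of 13 general fibroblast markers measured, Vim (vimentin, the intermediate filament of mesenchymal cells), Col1a1, Col1a2, Fn1 (fibronectin), Ddr2, P4hb, Prrx1 and S100a4 did not pass the test, with differences from −0.61 for S100a4 to 0.34 for Col1a2. The mean over the 13 was 14.12 to 14.39 in MEF-1 clones and 13.62 to 14.33 in MEF-2 clones, and 5 of the 13 differed between the sets. Pdgfra, the receptor for platelet-derived growth factor on mesenchymal cells, was at 14.05, 14.94 and 15.41 (lowest, median and highest) in MEF-1 and at 12.13, 12.89 and 14.45 in MEF-2. The difference was −1.85 ± 0.29 (SE, adjusted p = 8.77e-05), with overlap between the sets. Thy1, a surface protein used to sort fibroblasts, was low in every MEF-1 clone (2.72, 2.90 and 3.43) and spread over MEF-2 (3.42, 5.01 and 8.02), with a difference of 2.59 ± 0.66 (adjusted p = 0.00392). Fap, a surface protease of activated fibroblasts, and Twist2, a transcription factor of dermal mesenchyme, were higher in MEF-1, by a difference of −1.86 ± 0.32 and −1.42 ± 0.23.

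Among markers that tell fibroblast subsets apart, 12 of 26 were higher in MEF-1 (9 by 1 or more) and 4 in MEF-2 (3 by 1 or more), with a median of −0.41. Penk, which encodes the precursor of the enkephalin peptides (chromosome 4, minus strand, 4133531 to 4138819 on mm10), had the largest difference of all genes higher in MEF-1. It stood at 15.54, 16.30 and 17.16 in MEF-1 and at 9.85, 9.94 and 11.46 in MEF-2. The lowest MEF-1 clone lay over 4 units above the highest MEF-2 clone, and the difference was −6.29 ± 0.30 (adjusted p = 4.47e-10). Dpt, the dermal matrix protein dermatopontin, was at 7.50, 9.24 and 10.41 in MEF-1 and at 4.25, 4.62 and 5.45 in MEF-2, without overlap (difference −4.42 ± 0.41, adjusted p = 4.41e-07). Sdk1, a cell adhesion molecule, varied widely among MEF-1 clones (5.18 to 10.93) while MEF-2 clones lay between 3.75 and 4.44. The parental lines were in the opposite order, at 7.39 in MEF-1 and 8.48 in MEF-2. On the other side, Crabp1, the cytoplasmic carrier of retinoic acid, was at 3.13, 3.42 and 3.75 in MEF-1 and at 3.78, 6.87 and 9.30 in MEF-2 (difference 3.57 ± 0.60, adjusted p = 0.000159). MEF-2 clones spread over more than 5 units, with the lowest just above the highest MEF-1 clone. Lrig1 was also higher in MEF-2, by 1.35. Pi16 and Dpp4, markers of a progenitor-like subset, did not pass the test, with differences of 0.04 and 0.15.

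**Figure D2:**
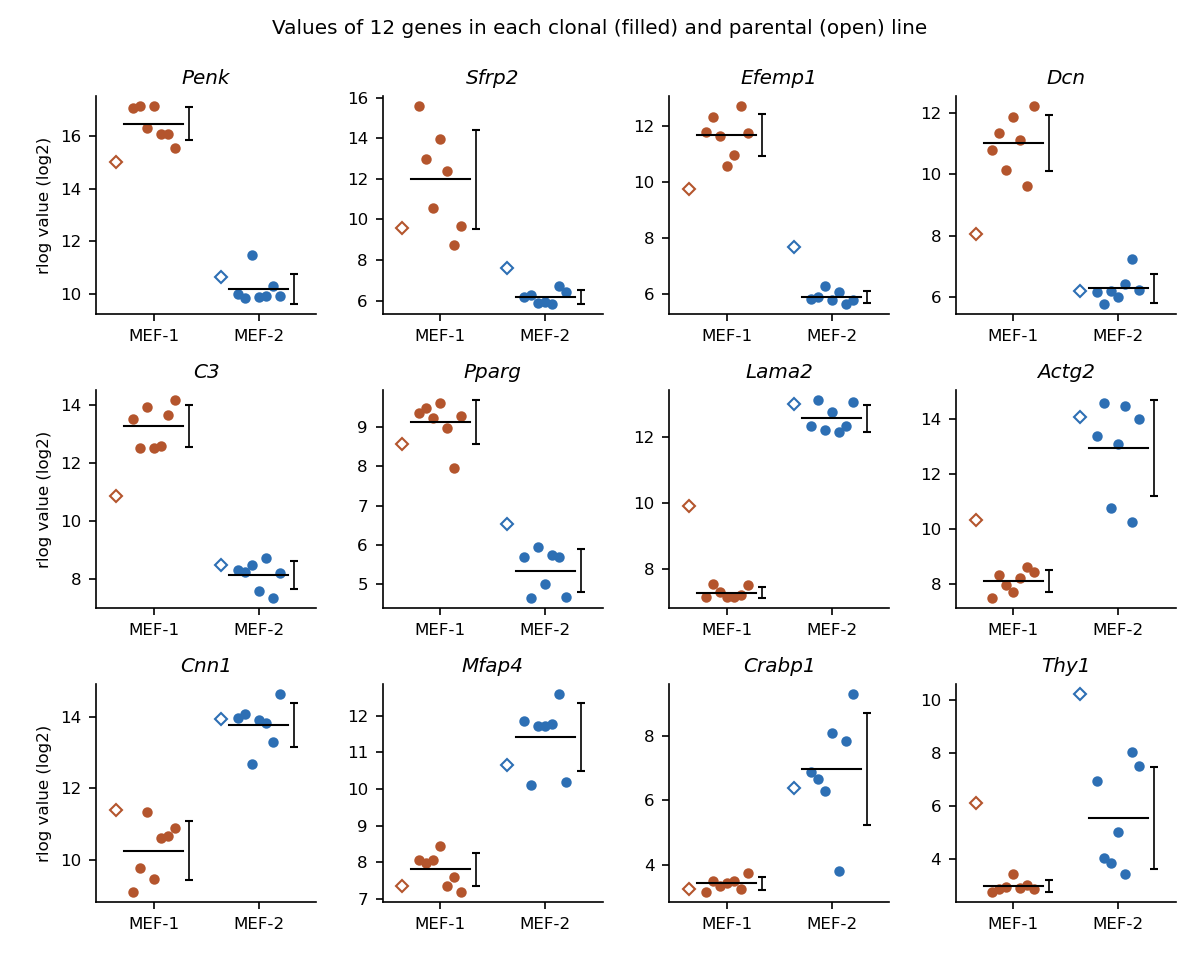
Each panel gives the rlog values (log2 scale) of 1 of 12 genes, with clonal lines as filled points, the parental line as an open diamond, and the mean and SD of the 7 clonal lines as a line and an error bar. Penk, Sfrp2, Efemp1, Dcn, C3 and Pparg lie higher in all MEF-1 clones and Lama2, Actg2, Cnn1, Mfap4 and Crabp1 in all MEF-2 clones, whereas Thy1 overlaps by a narrow margin.

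Among fibrillar collagens, which form the fibres of the interstitial matrix, Col1a1, Col1a2, Col5a1, Col5a2, Col5a3, Col11a1 and Col11a2 did not pass the test. Col3a1 (−0.60 ± 0.16), Col24a1 (−1.42 ± 0.33) and Col27a1 (−1.12 ± 0.15) were higher in MEF-1. Over 26 interstitial collagens, 11 were higher in MEF-1 (5 by 1 or more) and 4 in MEF-2 (2 by 1 or more), with a median of −0.47. The median was −0.30 when only members with a mean above 5 were kept. Col23a1, a transmembrane collagen, had 8.28, 9.41 and 10.71 in MEF-1 and 5.69, 6.61 and 8.71 in MEF-2, so that 1 MEF-2 clone reached into the MEF-1 range (difference −2.76 ± 0.47, adjusted p = 0.00016). Col7a1, the anchoring fibril collagen, was higher in MEF-2 by 1.52 ± 0.37 (adjusted p = 0.00311), and Col8a2, a short-chain collagen, by 1.32 ± 0.34. The 3 main chains of collagen VI, Col6a1, Col6a2 and Col6a3, were all higher in MEF-1, by differences of −0.74, −0.64 and −0.62.

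In the basement membrane, laminin chains went in both directions. Of 23 genes, 8 were higher in MEF-1 (4 by 1 or more) and 7 in MEF-2 (6 by 1 or more), with a median of 0.00. Lama2, the laminin α2 chain of muscle and nerve basement membranes (chromosome 10, minus strand, 26980036 to 27619758), was at 7.13, 7.19 and 7.53 in MEF-1 and at 12.14, 12.33 and 13.10 in MEF-2. The clones of a set lay close together and the sets far apart (difference 5.28 ± 0.16, adjusted p = 2.54e-12). Lamc3, another laminin chain, was also higher in MEF-2, by 2.15 ± 0.22, whereas Lama1 (−1.84 ± 0.33) and Lamb2 (−1.31 ± 0.10) were higher in MEF-1. In collagen IV, Col4a3 and Col4a4, neighbours on chromosome 1 that encode chains of the kidney and eye network, were higher in MEF-2 by 2.55 ± 0.48 and 2.34 ± 0.39. Col4a1, one of the 2 chains found in nearly all basement membranes, was at 12.68 to 15.11 in MEF-1 and 11.51 to 15.04 in MEF-2 and did not pass the test (−0.53 ± 0.51, adjusted p = 0.398). Col18a1, the source of endostatin, was higher in MEF-2 by 2.23 ± 0.31, and Fras1, which joins epithelium and mesenchyme in the embryo, was higher in MEF-1 (−2.64 ± 0.28).

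Of the genes of elastic fibres and microfibrils, Efemp1 was among the 10 non-overlapping genes higher in MEF-1 that differed most. Efemp1 (fibulin-3, chromosome 11, plus strand, 28853204 to 28926743) was at 10.56, 11.74 and 12.71 in MEF-1 and at 5.64, 5.81 and 6.28 in MEF-2 (difference −5.77 ± 0.27, adjusted p = 4.23e-10). Fbln7, another fibulin, was higher in MEF-1 too (−3.02 ± 0.40). In contrast, Mfap4, a microfibril protein, stood at 7.18, 7.97 and 8.44 in MEF-1 and at 10.10, 11.73 and 12.58 in MEF-2 (3.61 ± 0.35, adjusted p = 7.75e-07). Loxl2, which crosslinks collagen, was higher in MEF-2 by 2.12 ± 0.28. None of these 4 genes overlapped between the sets. Elastin itself (Eln) did not pass the test, with a difference of −0.38. Of 16 genes of elastic fibres, 6 were higher in MEF-1 and 5 in MEF-2, with a median of −0.31.

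Small leucine-rich proteoglycans bind collagen fibrils and set their width. Dcn (decorin, chromosome 10, plus strand, 97479609 to 97518143) was at 9.63, 11.14 and 12.24 in MEF-1 and at 5.77, 6.19 and 7.24 in MEF-2 (difference −4.74 ± 0.36, adjusted p = 5.43e-08). Lum (lumican) followed, at 9.10 to 11.88 against 5.60 to 8.70 (−3.68 ± 0.53, adjusted p = 4.02e-05). Of their family, Prelp (−2.32), Fmod (−1.92), Podn (−0.92), Ogn (−0.91), Aspn (−0.83) and Kera (−0.37) also passed the test in that direction, whereas Omd, Epyc and Podnl1 did not pass it. The large hyaluronan-binding proteoglycan Vcan (versican) went the other way, at 14.35, 15.36 and 15.69 in MEF-1 and 16.28, 16.66 and 17.05 in MEF-2 (1.48 ± 0.21, adjusted p = 3.45e-05). Has2, the enzyme that makes hyaluronan in mesenchyme, was higher in MEF-2 by 1.37 ± 0.38 (adjusted p = 0.00672), and Hapln4, a link protein, by 1.59 ± 0.22. Over 32 proteoglycan and hyaluronan genes, 13 were higher in MEF-1 (6 by 1 or more) and 5 in MEF-2 (3 by 1 or more), with a median of −0.29.

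Of 41 enzymes that cut the matrix and their inhibitors, 19 were higher in MEF-1 (10 by 1 or more), 8 were higher in MEF-2 (4 by 1 or more) and 14 did not pass the test. Adamts9, a protease that cleaves versican, was at 11.22, 12.62 and 13.52 in MEF-1 and at 8.01, 8.45 and 9.48 in MEF-2 (difference −4.15 ± 0.31, adjusted p = 5.16e-08), so that the cleaving enzyme and its substrate were higher in opposite sets. Timp3, an inhibitor of metalloproteases held in the matrix, was higher in MEF-1 (−1.64 ± 0.12) without overlap. Mmp3 (stromelysin) was at 3.26 to 6.26 in MEF-1, and in MEF-2 its values of 1.76 to 1.92 followed the level the table gives to genes without reads. Adamts7 (1.79 ± 0.12) and Serpine2 (2.28 ± 0.44), an inhibitor of serine proteases, were higher in MEF-2.

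Contractile genes of smooth muscle were higher in MEF-2, 16 of 23 measured and 8 by 1 or more, against 2 higher in MEF-1 and 0 by 1 or more, with a median of 0.58. Acta2, the smooth-muscle actin, lies on chromosome 19 and was not counted. Actg2, the enteric actin of smooth muscle (chromosome 6, minus strand, 83512905 to 83536265), was at 7.49, 8.22 and 8.63 in MEF-1 and at 10.28, 13.41 and 14.58 in MEF-2 (difference 4.84 ± 0.61, adjusted p = 1.08e-05). MEF-2 clones 3 and 6 were the lowest of their set, at 10.79 and 10.28, and still above every MEF-1 clone. Myocd (myocardin), the coactivator of serum response factor that turns on these genes, was at 3.36, 3.57 and 3.92 in MEF-1 and at 6.05, 7.17 and 8.39 in MEF-2 (3.68 ± 0.33, adjusted p = 3.02e-07). Cnn1 (calponin) was higher in MEF-2 by 3.52 ± 0.35 without overlap. Of the other contractile genes, Acta1 (2.77 ± 0.51) and Myh11 (1.92 ± 0.49), the smooth-muscle myosin heavy chain, overlapped between the sets, as did Tagln (0.83 ± 0.21), Myl9 (0.56 ± 0.17) and Cnn2 (0.35 ± 0.09). The mean over the 23 genes was 10.652 to 10.996 in MEF-1 clones and 11.40 to 12.27 in MEF-2 clones, with MEF-2 clones 3 and 6 at the low end. Targets of YAP and TAZ, coactivators that respond to tension, did not share this direction, with 8 of 21 higher in MEF-1 (3 by 1 or more), 2 higher in MEF-2 (0 by 1 or more) and a median of −0.20.

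Serum response factor binds a sequence known as the CArG box. The promoters of genes in this group were searched for it on both strands, in windows of the 250 bases before the start. A promoter was at hand in RefSeq (GRCm38.p6) for 18 of the 23 genes, all but Actg2, Tagln, Myocd, Myh11 and Csrp2. The box was found in 3 of the 18 (16.7%) and in 1.62% of all 27025 genes with a promoter. The 3 are shown with the box in capitals, as the 180 bases before the start of the gene, read 5′ to 3′ on the strand of the gene. They are Myl9 (chr2:156775284-156775463, plus strand), Acta1 (chr8:123894776-123894955, minus strand) and Cnn2 (chr10:79988420-79988599, plus strand).
Myl9: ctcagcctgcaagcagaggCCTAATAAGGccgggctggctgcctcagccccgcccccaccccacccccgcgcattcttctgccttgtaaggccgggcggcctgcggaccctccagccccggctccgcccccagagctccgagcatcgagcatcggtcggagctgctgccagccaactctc
Acta1: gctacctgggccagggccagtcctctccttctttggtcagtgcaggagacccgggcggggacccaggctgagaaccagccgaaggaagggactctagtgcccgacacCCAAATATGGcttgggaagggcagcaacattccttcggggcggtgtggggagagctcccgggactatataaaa
Cnn2: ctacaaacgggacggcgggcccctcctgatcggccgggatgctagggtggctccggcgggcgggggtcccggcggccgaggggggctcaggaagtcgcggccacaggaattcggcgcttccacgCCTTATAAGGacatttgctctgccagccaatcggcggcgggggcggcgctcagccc
A match of letters is a description of the window. Of these 3 genes, Acta1 differed between the sets by more than 2 units and Cnn2 by less than 1, and the sets overlapped in all 3.

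Markers of cells that also use contractile genes were looked at beside this group. Of 7 pericyte markers measured, 4 were higher in MEF-2 and 0 in MEF-1, among them Kcnj8 (1.73 ± 0.43), Abcc9 (1.46 ± 0.54) and Rgs5 (1.20 ± 0.42), all with overlap, while Cspg4 and Notch3 did not pass the test (0.16 and −0.09). Their mean level was 8.87 to 9.79 in MEF-1 clones and 9.30 to 10.81 in MEF-2 clones, and Higd1b had an average of 0 or lower. For skeletal muscle, 15 of 32 genes had an average of 0 or lower, among them the determination factors Myod1, Myf5 and Myog, and of 16 measured, which share Acta1 and Des with the smooth-muscle group, 6 were higher in MEF-2 and 2 in MEF-1. The part of either cell type in the contractile difference was not tested.

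**Figure D3:**
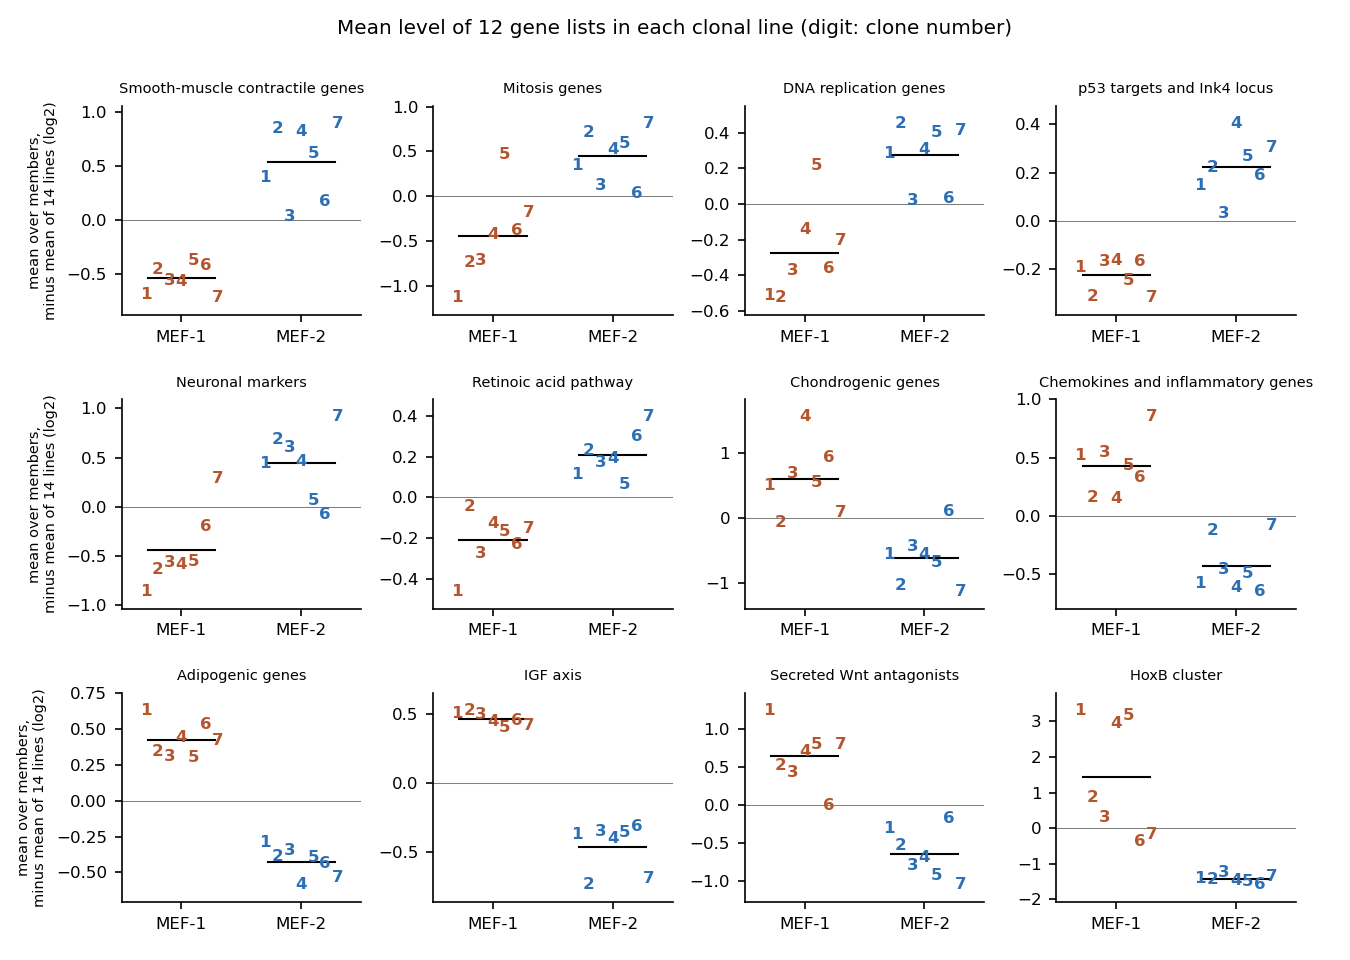
Each digit is the number of a clonal line, placed at the mean rlog value over the measured members of a gene group, minus the mean of the 14 lines (log2 scale), with a bar at the mean of each set. Smooth-muscle genes separate the sets, while for mitosis genes MEF-1 clone 5 lies among the MEF-2 clones and for chondrogenic genes MEF-2 clone 6 lies among the MEF-1 clones.

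Chondrogenic genes were higher in MEF-1, 14 of 22 measured (11 by 1 or more) against 1 higher in MEF-2, with a median of −1.05. The regulator Sox9 and the main products Col2a1 and Acan were not among them. Sox9 was at 13.66 to 14.46 in MEF-1 and 13.82 to 14.24 in MEF-2 (difference −0.16 ± 0.10, adjusted p = 0.195), Col2a1 differed by −0.25 ± 0.33 (adjusted p = 0.545) and Acan by 0.39 ± 0.28 (adjusted p = 0.258). Among those higher in MEF-1, Matn4, a matrilin, was at 9.47, 10.72 and 12.34 in MEF-1 and at 6.30, 7.32 and 8.77 in MEF-2 (−3.45 ± 0.41, adjusted p = 5.53e-06). Col9a1, a collagen on the surface of cartilage fibrils, was at 7.75, 9.13 and 12.19 against 5.28, 6.21 and 7.51 (−3.16 ± 0.55, adjusted p = 0.000203). Matn1 (−3.15 ± 0.59) and Scrg1 (−2.76 ± 0.43) lay higher in MEF-1 in the same way, and all 4 without overlap. The exception was Col9a3, a chain of the same collagen IX, at 7.21 to 8.48 in MEF-1 and 9.49 to 12.16 in MEF-2 (2.40 ± 0.36, adjusted p = 5.2e-05). The mean over the group was highest in MEF-1 clone 4 (11.47) and, of MEF-2, in clone 6 (10.01), which lay above MEF-1 clones 2 (9.83) and 7 (9.99).

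Of 18 adipogenic genes, 7 were higher in MEF-1 (6 by 1 or more) and 3 in MEF-2 (1 by 1 or more). Pparg, the nuclear receptor that drives fat cell differentiation (chromosome 6, plus strand, 115360951 to 115490399), was at 7.96, 9.28 and 9.60 in MEF-1 and at 4.64, 5.69 and 5.95 in MEF-2 (difference −3.78 ± 0.28, adjusted p = 4.02e-08). Cebpa, which acts with it, was at 7.35 to 8.00 against 4.03 to 5.11 (−2.96 ± 0.18), and Klf15 and Ebf2, 2 factors of the adipocyte line, differed by −3.30 ± 0.27 and −2.40 ± 0.41. None of the 4 overlapped. Genes of mature fat cells did not follow as a group. Lpl (−1.87 ± 0.49) and Fabp4 (−1.38) were higher in MEF-1, Plin2, a coat protein of lipid droplets found in many cells, was higher in MEF-2 by 1.13, Plin1 and Lipe did not pass the test (−0.10 and −0.13), and Adipoq, Cidec and Cfd had an average of 0 or lower. Of 9 tendon genes, 3 were higher in each set, with Fmod (fibromodulin) higher in MEF-1 (−1.92 ± 0.61) and Ptgis, the prostacyclin synthase, higher in MEF-2 (2.06 ± 0.26), while the tendon regulator Scx did not pass the test (0.05). Of 17 osteogenic genes, 4 were higher in MEF-1 (2 by 1 or more) and 2 in MEF-2 (1 by 1 or more). At any size, both counts were below the shares over all genes. The bone regulator Runx2 did not pass the test (−0.03).

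Of 20 genes of the insulin-like growth factor axis, 10 were higher in MEF-1 (8 by 1 or more), 2 were higher in MEF-2 and 8 did not pass the test. Igf2, the fetal growth factor (chromosome 7, minus strand, 142650766 to 142666816), was at 11.44, 13.16 and 15.59 in MEF-1 and at 7.64, 8.00 and 8.59 in MEF-2 (difference −5.29 ± 0.45, adjusted p = 2.03e-07). Igf2bp3, which binds its mRNA, was at 9.76 to 10.96 against 5.63 to 9.53 (−3.90 ± 0.52), with MEF-2 clone 5 far above the rest of its set. Stc1 (−2.62 ± 0.38), an inhibitor of the protease that frees the factor, and the binding proteins Igfbp3 (−2.2 ± 0.33) and Igfbp5 (−1.34 ± 0.41) were higher in MEF-1 as well. The receptors differed little, Igf1r by −0.30 and Igf2r by 0.20, of which Igf1r passed the test, and Igf1 itself did not (0.11).

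Some ligands, targets and secreted inhibitors of Wnt signalling differed between the sets, not all in the same direction. Of 37 ligands, receptors and targets, 16 were higher in MEF-1 (10 by 1 or more) and 7 in MEF-2 (4 by 1 or more), with a median of −0.38. Axin2 and Nkd1 are feedback inhibitors that the pathway itself switches on. Nkd1 was at 10.76, 11.68 and 11.88 in MEF-1 and at 5.89, 6.19 and 7.14 in MEF-2 (difference −5.06 ± 0.23, adjusted p = 3.52e-10), and Axin2 at 8.54, 9.01 and 9.11 against 6.27, 6.95 and 7.56 (−1.91 ± 0.18, adjusted p = 7.17e-07). Neither overlapped. The ligands Wnt10b (−2.45 ± 0.27), Wnt4 (−2.15 ± 0.19) and Wnt5a (−1.70 ± 0.11) were higher in MEF-1 without overlap, and Wnt2b (1.54 ± 0.35) and Wnt16 (1.27 ± 0.25) were higher in MEF-2 with overlap. Lgr5, a receptor for R-spondins and itself a Wnt target, was higher in MEF-2 (1.72 ± 0.55, adjusted p = 0.015), at 7.33 to 9.97 against 8.34 to 12.07. Of 8 secreted antagonists, 4 were higher in MEF-1, 0 were higher in MEF-2 and 4 did not pass the test. Their median was −0.44 in the clonal lines and 0.39 in the parental lines, which have 1 library each. Sfrp2, which binds Wnt ligands outside the cell (chromosome 3, plus strand, 83766321 to 83774316), was at 8.75, 12.36 and 15.60 in MEF-1 and at 5.83, 6.18 and 6.72 in MEF-2 (−5.81 ± 0.84, adjusted p = 3.96e-05). MEF-1 clones covered almost 7 units and MEF-2 clones less than 1. Frzb (−2.12 ± 0.23) and Wif1 (−1.86 ± 0.34) were also higher in MEF-1, and Sfrp1, Sfrp4 and Dkk3 did not pass the test (0.08, −0.27 and 0.15).

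Of 21 genes of Notch signalling, 7 were higher in MEF-1 (1 by 1 or more) and 8 in MEF-2 (6 by 1 or more). The 1 was the ligand Dll1, at 6.24, 7.55 and 9.36 in MEF-1 and at 3.44, 4.05 and 4.76 in MEF-2 (difference −3.41 ± 0.41, adjusted p = 5.87e-06). Among genes that Notch receptors switch on, Hey2 was at 5.46 to 6.99 against 8.26 to 9.18 (2.56 ± 0.25) and Hey1 at 5.29 to 6.11 against 6.80 to 8.00 (1.63 ± 0.20), both higher in MEF-2 without overlap, and Hes1 was higher in MEF-2 by 0.80 with overlap. Dner, a transmembrane protein with Notch-like repeats known from neurons (chromosome 1, minus strand, 84369839 to 84696221), was at 6.82, 7.15 and 8.39 in MEF-1 and at 10.94, 12.47 and 13.56 in MEF-2 (4.96 ± 0.34, adjusted p = 2e-08). The receptors Notch1 and Notch3 did not pass the test (−0.09 each), and Notch2 was higher in MEF-1 (−0.40).

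Of 18 genes of the hedgehog pathway, 9 were higher in MEF-1 and 1 in MEF-2. Ptch1, both receptor and target of the pathway (−0.66 ± 0.15), Smo (−0.67 ± 0.09), Boc (−0.99), Cdon (−0.67) and Gas1 (−0.70) were higher in MEF-1, none by 1 or more. Gli1, another target, was at 5.01, 5.56 and 6.33 in MEF-1 and at 6.08, 6.94 and 7.72 in MEF-2, with some overlap (difference 1.49 ± 0.26, adjusted p = 0.000178). It was the 1 gene of the 18 higher in MEF-2.

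Of 15 genes of retinoic acid handling, 5 were higher in MEF-1 (1 by 1 or more) and 6 in MEF-2 (5 by 1 or more), with a median of −0.02. Among those higher in MEF-2 were the carriers Crabp1, given above, and Crabp2 (1.26 ± 0.24), the synthetic enzyme Aldh1a3 (1.20 ± 0.42) and the degrading enzyme Cyp26b1 (1.28 ± 0.25). Crabp2 was at 5.39 to 6.88 in MEF-1 and 7.07 to 8.34 in MEF-2, without overlap. The receptors Rara and Rarb did not pass the test (−0.02 and 0.50), and Rxra was higher in MEF-1 (−0.92).

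For TGF-β and BMP signalling the counts were even, 15 higher in each set and 7 by 1 or more in each, out of 50. At any size, these counts were near the shares over all genes (28.4% and 25.9%). Of the TGF-β receptors, those higher in MEF-1 were Tgfbr3 (betaglycan) at 13.60 to 14.75 against 10.39 to 12.56 (difference −2.77 ± 0.29, adjusted p = 1.7e-06) and Tgfbr2 at 15.14 to 15.86 against 13.22 to 15.08 (−1.33 ± 0.24, adjusted p = 0.000259), while Tgfbr1 was higher in MEF-2 (0.72) as was the ligand Tgfb1 (0.95). Bmp3 was higher in MEF-1 (−3.12 ± 0.54). Grem1, a secreted BMP antagonist, was at 10.07, 11.03 and 11.77 in MEF-1 and 11.52, 13.91 and 14.16 in MEF-2 (2.61 ± 0.38, adjusted p = 4.63e-05), with overlap between the sets. For growth factor ligands of other families, 15 of 37 were higher in MEF-1 (9 by 1 or more) and 5 in MEF-2 (3 by 1 or more). Tgfa, a ligand of the EGF receptor, differed by −3.14 ± 0.27 and Gas6, a ligand of Axl and related receptors, by −2.23 ± 0.23, both without overlap. Among 30 receptor tyrosine kinases, 15 were higher in MEF-1 and 3 in MEF-2, and 5 and 0 by 1 or more.

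Of 36 chemokines and inflammatory genes, 17 were higher in MEF-1 (10 by 1 or more) and 4 in MEF-2 (1 by 1 or more), with a median of −0.70. C3, the central complement component (chromosome 17, minus strand, 57203970 to 57228136), was at 12.52, 13.53 and 14.17 in MEF-1 and at 7.35, 8.25 and 8.74 in MEF-2 (difference −5.13 ± 0.30, adjusted p = 3.42e-09). Lcn2, an iron-binding acute phase protein, was at 5.98 to 9.12 against 3.54 to 4.95 (−3.41 ± 0.40), and the neutrophil chemokine Cxcl1 at 10.36 to 12.62 against 8.31 to 9.98 (−2.57 ± 0.33), both without overlap. Ccl2, the monocyte chemokine, was higher in MEF-1 with overlap (−1.74 ± 0.41, adjusted p = 0.00245). Cxcl12, made by most fibroblasts, was higher in MEF-1 by a difference of −1.0. Il6 and the prostaglandin synthase Ptgs2 did not pass the test (−0.75 and −0.32), and Lif, a cytokine of the same family as Il6, was higher in MEF-2 by 1.33. Blood cell markers were looked at beside this group. Of 20, 12 had an average of 0 or lower, among them Adgre1, Tyrobp and Spi1, and 5 were listed at 0 in every line. The table holds no counts, so that a listed 0 does not show that a gene was silent. Of 6 measured, 3 were higher in MEF-1, with Lyz2 (lysozyme) at 4.94 to 7.20 against 2.79 to 3.64 (−2.80 ± 0.32). The mean of the 6 was 2.72 to 3.14 in MEF-1 clones and 2.18 to 2.62 in MEF-2 clones, and their part in the inflammatory difference was not tested.

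Cell cycle genes were higher in MEF-2. All 36 mitosis genes measured passed the test in that direction, 13 of them by 1 or more, with a median of 0.93, and 34 of 41 replication genes did so (5 by 1 or more, median 0.57). None of the 36 separated the sets fully. Mki67, the antigen Ki-67 of dividing cells, was at 12.32, 13.11 and 14.28 in MEF-1 and at 13.94, 14.39 and 14.58 in MEF-2 (difference 1.18 ± 0.23, adjusted p = 6e-04). Ccna2 (cyclin A2) differed by 1.13 ± 0.22 and Plk1 (polo-like kinase) by 1.13 ± 0.25, at 10.63 to 12.44 against 12.12 to 12.90 and at 9.75 to 11.77 against 11.22 to 12.24. MEF-1 clone 5 had a mean over the 36 genes of 11.74, among the MEF-2 clones, whereas the other MEF-1 clones lay between 10.14 and 11.09, and MEF-2 clones 3 and 6 were the lowest of their set at 11.40 and 11.31. The number of mitosis genes higher by 1 or more rested on single clones, being 3 without MEF-1 clone 1, 8 without MEF-1 clone 2 or without MEF-2 clone 7, and 25 without MEF-1 clone 5. Without MEF-1 clone 5 and MEF-2 clones 3 and 6 together, a setting chosen after seeing the data, it was 30. The number higher in MEF-2 at any size was between 33 and 36 in all fits run. The parental lines lay close to each other. Their means over the 36 genes were 12.02 for MEF-1 and 11.96 for MEF-2, and the median difference over the group was −0.06, with 1 library each and no test.

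One replication gene went the other way. E2f1, a transcription factor of S phase genes, was higher in MEF-1 (10.96, 11.28 and 11.54 against 10.19, 10.59 and 10.68; difference −0.78 ± 0.10, adjusted p = 9.91e-06), without overlap. Orc1, of the origin recognition complex, was higher in MEF-2 by 1.31 ± 0.18, also without overlap. Many mitosis genes carry in their promoter the element called CHR (TTTGAA, or TTCAAA on the other strand) and CCAAT boxes (CCAAT, or ATTGG), and both were searched on both strands in the same windows as above. CHR was found in 11 of 32 mitosis genes with a promoter (34.4%) and in 18.3% of all genes, and CCAAT in 24 of 32 (75%) and 37.5%. Shown are 3 genes with CHR in capitals, as 120 bases before the start on the strand of the gene, chosen as markers of dividing cells that are named here. Cdc20 lies at chr4:118437344-118437463, Mki67 at chr7:135716380-135716499 and Cdk1 at chr10:69352913-69353032, all on the minus strand.
Cdc20: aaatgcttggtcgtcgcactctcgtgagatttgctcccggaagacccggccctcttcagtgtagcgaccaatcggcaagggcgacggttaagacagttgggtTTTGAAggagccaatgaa
Mki67: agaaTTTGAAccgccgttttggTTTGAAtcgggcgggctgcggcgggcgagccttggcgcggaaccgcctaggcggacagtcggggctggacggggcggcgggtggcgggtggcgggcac
Cdk1: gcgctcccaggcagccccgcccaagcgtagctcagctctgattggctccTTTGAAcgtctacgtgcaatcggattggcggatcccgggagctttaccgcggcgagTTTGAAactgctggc
Cdc20, which activates the ligase that ends mitosis, differed by 0.97 ± 0.23 and Cdk1, the kinase that starts it, by 0.48 ± 0.17, both higher in MEF-2 with overlap (adjusted p = 0.00232 and 0.0229).

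The brakes on division differed in opposite directions. Cdkn2a, which encodes the inhibitors p16 and p19 (chromosome 4, minus strand, 89274471 to 89294653, with both transcripts in 1 value), was at 13.14, 13.29 and 13.70 in MEF-1 and at 10.62, 11.14 and 11.42 in MEF-2 (difference −2.21 ± 0.13, adjusted p = 2.84e-09). Its neighbour Cdkn2b, which encodes p15, was at 11.11 to 11.65 against 8.90 to 9.78 (−1.95 ± 0.13). Several genes that p53 switches on were higher in MEF-2, though not all of the group were. Cdkn1a, the inhibitor p21, was at 8.66, 9.57 and 10.41 in MEF-1 and at 11.58, 12.20 and 12.73 in MEF-2 (2.61 ± 0.23, adjusted p = 2.52e-07). Gdf15 was higher by 2.50 ± 0.32 and Ccng1 (cyclin G1) by 1.53 ± 0.09, and Trp53 itself by 0.95 ± 0.08, at 12.32 to 12.80 against 13.31 to 13.74. Bax, which promotes cell death, was higher in MEF-2 by 0.90 and Mdm2, which degrades p53, by 0.49. Of 27 genes of this group, 17 were higher in MEF-2 and 3 in MEF-1 (Cdkn2a, Cdkn2b and Sesn1), and 7 did not pass the test. By 1 or more, 3 were higher in MEF-2 and 2 in MEF-1. In 16 the sets did not overlap. Over all genes, 25.9% were higher in MEF-2, 28.4% were higher in MEF-1 and 23.9% did not overlap. In the MEF-1 parental line Cdkn1a was at 11.63, above all 7 of its clones and within the range of MEF-2 clones, and in the MEF-2 parental line it was at 12.38.

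**Figure D4:**
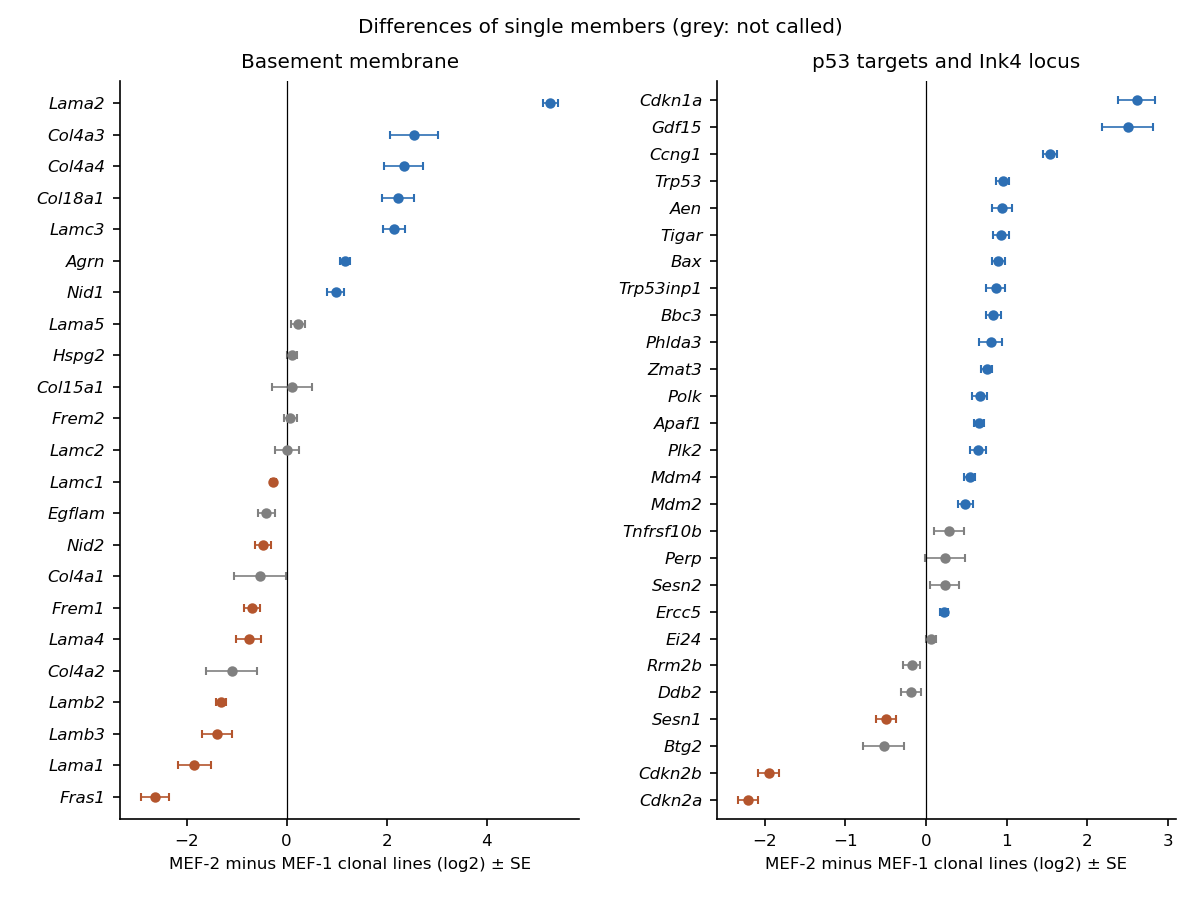
Points give the difference of the set means, MEF-2 minus MEF-1 (log2 scale), with its SE for each measured member of the basement membrane group and of the p53 and Ink4 group, in colour where the adjusted p was under 0.05 and in grey where it was not. Lama2 stands far to the right in the first panel, and Cdkn2a and Cdkn2b stand alone at the far left in the second.

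Positional and mesenchymal transcription factors were more often higher in MEF-1. For limb, face and body wall, 23 of 47 were (13 by 1 or more, against 9 and 5 in MEF-2). For mesenchyme, 19 of 36 were (10 by 1 or more, against 6 and 1). The medians were −0.45 and −0.36, and −0.12 and −0.22 when only genes with a mean above 5 were kept. Msx1, a homeobox gene of limb and face mesenchyme (chromosome 5, minus strand, 37820485 to 37824583), was at 7.95, 8.62 and 9.09 in MEF-1 and at 3.81, 3.92 and 4.02 in MEF-2 (difference −4.57 ± 0.16, adjusted p = 1.53e-11). Osr2, of palate and limb mesenchyme, was at 8.86, 9.50 and 10.18 against 4.27, 4.59 and 5.10 (−4.91 ± 0.20, adjusted p = 1.12e-10), and Ebf3 at 9.66, 10.08 and 11.04 against 5.27, 5.44 and 5.60 (−4.98 ± 0.20, adjusted p = 7.8e-11). All 3 were narrow in MEF-2. The MEF-2 values of Msx1 were low and partly followed the level the table gives to genes without reads (correlation 0.72). The size of its difference is thus uncertain. Zic4, of dorsal mesenchyme and neural tube, was higher in MEF-2 at 10.80 to 12.53 against 9.43 to 9.81 (2.05 ± 0.20), and so was Nkx6-1 (1.70 ± 0.26). Prrx1 and Tbx15, which mark large fields of mesenchyme, did not pass the test (0.18 and −0.12). In the HoxB cluster 9 of 9 measured genes were higher in MEF-1 (8 by 1 or more, median −3.38), evenly for Hoxb4 (8.62, 8.95 and 9.08 against 4.49, 4.84 and 6.13) but unevenly for Hoxb9, at 12.49, 12.14 and 12.87 in MEF-1 clones 1, 4 and 5, at 6.11 in clones 2 and 3 and at 4.34 and 4.72 in clones 6 and 7, against 3.69 to 4.31 in MEF-2. Among these 9, Hoxb6 had MEF-2 values of 2.84 to 3.03 that followed the level the table gives to genes without reads. It thus entered through MEF-1, and its difference gives no size. In the HoxA cluster 2 of 11 were higher in MEF-1 and 3 in MEF-2, and all 9 HoxC genes had an average of 0 or lower.

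Of 34 cadherins and related proteins, 8 were higher in MEF-1 (6 by 1 or more) and 10 in MEF-2 (8 by 1 or more). Cdh4, Cdh6 and Cdh10, classical cadherins known from brain and kidney, were higher in MEF-2 without overlap, by 3.82 ± 0.32, 3.18 ± 0.37 and 2.73 ± 0.31. Cdh4 was at 8.82, 10.13 and 10.81 in MEF-1 and at 12.58, 13.85 and 14.35 in MEF-2. Cdh11, the cadherin of fibroblasts, did not pass the test (0.17). Ncam1 was higher in MEF-2 by 1.21 ± 0.24. Of 24 integrins, 8 were higher in MEF-1 (3 by 1 or more) and 4 in MEF-2 (1 by 1 or more). At any size, these were near or below the shares over all genes. Itga9 (−2.39 ± 0.26) was higher in MEF-1 and Itgb3 (1.46 ± 0.25) in MEF-2, both without overlap, and the chains Itgb5 and Itga11 did not pass the test (−0.19 and −0.06).

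Some genes known from neurons were higher in MEF-2. Stmn2 (stathmin-2, a microtubule protein of growing axons, chromosome 3, plus strand, 8509360 to 8561606) was at 5.18, 5.53 and 7.25 in MEF-1 and at 7.74, 10.94 and 13.21 in MEF-2 (difference 4.60 ± 0.69, adjusted p = 5.4e-05). Gap43, a growth cone protein, was at 8.62 to 10.55 against 10.55 to 11.99 (2.14 ± 0.28), and Tubb3, a neuronal tubulin, at 9.48 to 10.76 against 11.66 to 12.96 (1.90 ± 0.22). All 3 were without overlap. Of the 15 neuronal markers they belong to, 5 had an average of 0 or lower (Elavl4, Snap25, Rbfox3, Nefl and Neurog1) and 2 of these were listed at 0 in every line, with the same limit as for the blood cell markers. Of 9 measured, 4 were higher in MEF-2 and 2 in MEF-1, with a mean of 5.11 to 6.26 in MEF-1 clones and 5.89 to 6.88 in MEF-2 clones. Besides these 3, Map2 was higher in MEF-2 by 0.60, Sox2 and Elavl3 were higher in MEF-1 (−2.01 and −0.22), and Syt1 and Nefm did not pass the test. Endothelial markers (4 and 4 of 12) and epithelial markers (3 and 1 of 11) were counted in the same way, with means of 3.82 to 4.31 and 4.43 to 5.16 in MEF-1 clones and 3.88 to 4.22 and 4.53 to 5.00 in MEF-2 clones. Trp63, a transcription factor of basal epithelium, was at 9.97 to 10.85 in MEF-1 and 8.27 to 9.46 in MEF-2, without overlap. Krt15, another epithelial marker, was higher in MEF-2 by 1.22 ± 0.40, with overlap. It missed the threshold in 1 or more of the alternatives. Of 7 markers of glia and melanocytes, 0 differed by 1 or more.

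Some of the genes that differed most lay outside the gene groups and were of mixed function. Higher in MEF-1 were Dnah2, a chain of ciliary dynein (11.93 to 12.20 against 6.01 to 6.38), Pygo1, a nuclear partner of β-catenin (11.47 to 12.19 against 5.98 to 6.17), and Sod3, the extracellular superoxide dismutase (12.71 to 13.31 against 7.13 to 8.07). Higher in MEF-2 were Bcl11a, a zinc finger repressor (4.35 to 4.50 against 9.29 to 10.28; difference 5.41 ± 0.13, adjusted p = 1.86e-13), Kcnc2, a voltage-gated potassium channel (4.70 ± 0.21), and Crmp1, a protein of axon guidance (4.54 ± 0.30). Wasf3 (−5.48 ± 0.11) and Steap4 (−5.39 ± 0.32) on the MEF-1 side and Ulbp1 (4.61 ± 0.16) on the MEF-2 side were also among them. The spread within a set was under 1 unit for Dnah2, Pygo1, Sod3 and Bcl11a. Tmem132e, higher in MEF-2 by 5.12 ± 0.72, was at 4.66 in MEF-2 clone 5, far below the rest of its set. In MEF-1, Kcnc2 (3.56 to 3.98) and Tmem132e (4.11 to 4.33) were low. Their MEF-1 values partly followed the level given to genes without reads (correlations 0.88 and 0.83). The sizes of these 2 differences are thus uncertain.

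The parental lines, with 1 library each and no test, lay in the same direction for 952 of the 1056 genes higher in MEF-1 by 1 or more (90.2%) and for 534 of the 570 higher in MEF-2 (93.7%), against 74.0% of all genes, whose direction in the clonal lines includes small differences. The parental differences were smaller. The median was −0.79 for the genes higher in MEF-1, where the clonal lines had −1.70, and 1.03 for those higher in MEF-2, where the clonal lines had 1.40. By group, the median parental difference was −4.12 for HoxB, −0.89 for chondrogenic genes, 0.43 for smooth-muscle genes and −0.25 for chemokines and inflammatory genes. For some groups the parental median had the opposite sign to the clonal one. With a negative clonal median, these included secreted Wnt antagonists (0.39), growth factor ligands (0.15), elastic fibres (0.10) and matrix proteases (0.07). With a positive clonal median, they included replication genes (−0.05 against 0.57) and mitosis genes (−0.06 against 0.93). Penk was at 15.02 in parental MEF-1 and 10.65 in parental MEF-2, and Dcn at 8.07, below all of its 7 clones, and 6.21. Of 167 genes named by rule that were called, 12 had parental lines in the opposite direction, among them Fras1 (11.28 in MEF-1, 11.45 in MEF-2), Sdk1, Col23a1, Itga9, Rgs5, Ccna2 and Bub1. Several genes with large clonal differences were closer in the parental lines of MEF-1 and MEF-2. Among them were Pygo1 (10.89 and 9.88), Wasf3 (10.92 and 9.65), Ebf3 (9.36 and 8.68), Msx1 (8.53 and 6.63) and Sod3 (12.69 and 10.41). Lama2 was at 9.89 and 12.99, with parental MEF-1 above all of its clones. Dnah2, at 12.10 and 5.98, was not closer.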

How the data were processed

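Total RNA of 16 lines, 1 library each, was depleted of ribosomal RNA and sequenced as directional paired-end libraries. The authors trimmed reads with Trim Galore 0.6.0, quantified them with Salmon 1.5.2 on mm10 with Ensembl release 102 and deposited regularised log2 values made with DESeq2 1.24.0. Because the table holds log2 values and no counts, a count test was not used, and depth, and the precision it gives, is unknown. Lines were grouped by their labels. The IDs of 54200 of 54453 genes matched GENCODE mouse release 21 (GRCm38). The 7 and 7 clonal lines were compared with limma 3.58.1 in R 4.3.3 (trended prior) on the values as deposited over 15285 protein-coding genes with a mean above 0, with Benjamini-Hochberg adjustment, and counted over 13282, leaving out 5580 genes with a mean of 0 or lower. In simulated data, 55 of 100 genes shifted by 0.5 and 87 of 100 shifted by 1 were recovered, and 15 unshifted genes were called. No other genes were shifted there, and residuals were independent and normal, whereas 54.3% of genes passed in the data. The simulated rates are thus not the sensitivity of this comparison. Gene groups were written from general knowledge, and 3 symbols had no match. Where a symbol had several gene IDs, the ID with the highest mean over all lines was used. The members and lists were chosen with earlier results of these data known. Named genes were, for each group, up to 4 members with the largest difference among those called by 1 or more, the 10 non-overlapping genes on either side that differed most, and the fibroblast identity markers. All other genes named were chosen after their values were seen. Alternatives changed the prior, the genes fitted, the filter, the centring, the test and the lines, one at a time. Plots were drawn with matplotlib 3.10.9, and tables written with pandas 2.3.3 and scipy 1.17.1 under Python 3.11.15.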

Additional observations from a re-analysis of the deposited data

Results flagged for a closer look

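For each named gene and group mean, the 7 clonal lines of a set were examined for a line far from the others by Dixon's test. Of 448 sets of 7 values, 19 held such a line, where chance at 1 in 20 gives 22.4. In MEF-2, clone 3 stood apart for Penk (11.46, nearest other line 10.32), Hoxb4 (6.13, nearest 5.09) and Wasf3 (6.34, nearest 5.90). MEF-2 clone 5 stood apart for Igf2bp3 (9.53, nearest 6.16), for Tmem132e (4.66, nearest 9.56) and for the mean of limb, face and body-wall transcription factors (6.51, nearest 6.66). MEF-2 clone 6 stood apart for Adamts9 (9.48, nearest 8.51) and Dlx5 (7.40, nearest 5.88). In MEF-1, clone 7 stood apart for Sox2 (7.46, nearest 3.50), Wnt10b (8.37, nearest 7.07), Cdkn2a (13.70, nearest 13.37) and Sod3 (13.31, nearest 12.95). MEF-1 clone 6 was low for Dlx5 (4.78, nearest 6.79) and Pparg (7.96, nearest 8.97). MEF-1 clone 1 was high for Krt15 (4.03, nearest 3.18), clone 4 for Thy1 (3.43, nearest 2.99), and clone 5 was low for Dnah2 (11.93, nearest 12.11). MEF-1 clone 2 was high for the mean of semaphorins, netrins and slits (10.97, nearest 10.70) and low for that of mesenchymal transcription factors (10.55, nearest 10.72).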

How the results depend on the processing

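Of 175 named genes, 165 kept their direction and their side of the threshold in each of the 25 alternatives that gave them a value, and 27 of the 175 had none with a mean above 5. Abcc9, Bmp2, Car9, Dlx5, Esam, Krt15, Ptprb and Rgs5 missed the threshold in 1 or more of them, Col1a2 and S100a4 passed it in 1 or more, and no named gene that was called changed its direction. The clone numbers do not pair the sets: the deviations of same-numbered clones from their set mean had correlations from −0.14 to 0.20, and 1 number (5) was its own best match. With the clone number as a replicate block, 3631 genes were higher in MEF-1 and 3266 in MEF-2, and 1057 and 571 by 1 or more. Leaving out each clone in turn gave 3576 to 3819 and 3164 to 3508, and 1023 to 1106 and 522 to 630 by 1 or more. The set with more genes called at any size turned with a mean above 5 (2953 in MEF-1, 3225 in MEF-2) and with lines centred on each chromosome (3733 and 3774), but not by 1 or more (722 and 478, 1037 and 586). With a size threshold of 0.5, 2174 and 1524 genes were counted, and with 2, 387 and 146. Group medians moved most with a mean above 5, which by construction leaves fewer members. They became −0.30 for interstitial collagens, −0.29 for matrix proteases, −0.30 for receptor tyrosine kinases, −0.43 for growth factor ligands, −0.12 for limb and face factors, −0.22 for mesenchymal factors, 0.16 for pericyte markers and 1.90 for neuronal markers, and for tendon (0.052), endothelial (0.69), haematopoietic (0.34) and glia genes (−0.27) the sign changed. With the parental lines added, the median of matrix proteases was −0.30 and mitosis genes higher by 1 or more numbered 3. Without 1 clone, medians ranged from −0.47 to −0.19 for adipogenic genes, −0.54 to −0.32 for interstitial collagens, −0.13 to 0.15 for matricellular proteins, −0.39 to −0.22 for growth factor ligands and −0.20 to −0.011 for osteogenic genes. Without MEF-1 clone 5 and MEF-2 clones 3 and 6 together, chosen after seeing the data, they were −0.53 for the IGF axis, 0.44 for skeletal-muscle genes and 0.14 for NRF2 targets. Counts of group members moved as well. In that setting 10 smooth-muscle, 10 replication and 7 p53 group genes were higher in MEF-2 by 1 or more. With all clones these numbers were 8, 5 and 3. Without MEF-2 clone 4, smooth-muscle genes higher by 1 or more numbered 6. For these changes beyond the number of members or lines, the cause was not tested. DESeq2 and a pseudocount could not be tried on log2 values. As depth is unknown, no limit of detection can be given, and low rlog values are no absolute levels.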

Other observations

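Among semaphorins, netrins, slits and their receptors, 12 of 39 were higher in MEF-1 and 10 in MEF-2. Both counts were near the shares over all genes (28.4% and 25.9%). Plxna4, a semaphorin receptor, was at 9.56 to 11.88 in MEF-1 and 6.04 to 6.89 in MEF-2 (difference −4.37 ± 0.29, limma, adjusted p = 1.46e-08), and Unc5b, a netrin receptor, at 11.69 to 12.79 against 13.19 to 14.09 (1.5 ± 0.17). Of 18 Ephs and ephrins, 6 were higher in MEF-1 and 7 in MEF-2. By 1 or more, 5 were higher in MEF-1, among them Ephb6 (−1.86 ± 0.25) and Ephb3 (−1.29 ± 0.15), and 1 in MEF-2, Epha7 (1.77 ± 0.16).

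Of 40 imprinted genes, 19 were higher in MEF-1 and 9 in MEF-2. Cdkn1c, the inhibitor p57, was at 11.59 to 14.12 in MEF-1 and 7.09 to 8.28 in MEF-2 (−5.05 ± 0.33, limma, adjusted p = 1.26e-08), while Nap1l5 was at 3.37 to 5.20 against 5.55 to 7.22 (2.01 ± 0.33, adjusted p = 0.000113).

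Over all genes, 12.2% differed by 1 or more. Among 63 respiratory chain genes 0 did, with 9 higher in MEF-1 and 12 in MEF-2 at any size. Of glycolysis and hypoxia genes 11.8% did, among which Pdk1, a kinase that holds back pyruvate dehydrogenase, was higher in MEF-1 (−2.28 ± 0.15) and Pfkp, a phosphofructokinase, in MEF-2 (1.18 ± 0.17). Of 27 sterol and fatty acid genes, 12 were higher in MEF-2 and 3 in MEF-1. Among NRF2 targets, 8 of 28 were higher in each set and 21.4% differed by 1 or more, with Cbr3, a carbonyl reductase, at 8.43 to 8.99 in MEF-1 and 4.54 to 5.65 in MEF-2 (−3.81 ± 0.18). Of 38 interferon-stimulated genes, 9 were higher in MEF-1 and 4 in MEF-2, both below the shares over all genes. The counts of NRF2 targets at any size were near those shares.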
